A study of Mus musculus with 24 samples.

Results

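The miR-26 family was followed through meiotic and haploid male germ cells of mice that carry or lack the Ago413 locus. Its members were chosen by name from a table of raw read counts per mature miRNA: both arms of every miR-26 hairpin, which gave 5 of the 1978 rows of the table. They are the 5p strands mmu-miR-26a-5p and mmu-miR-26b-5p and the 3p strands mmu-miR-26a-1-3p, mmu-miR-26a-2-3p and mmu-miR-26b-3p.

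Small RNA was sequenced from 24 libraries, 4 for each of 6 groups. The cells were pachytene and diplotene spermatocytes, which are in prophase of the first meiotic division, or round spermatids, the haploid cells that meiosis gives. Each cell type came from Ago413+/+, Ago413+/- and Ago413-/- males aged 10 to 15 weeks on a C57BL/6J background. The Ago413 allele is a constitutive deletion that takes out Ago1 and parts of Ago3 and Ago4, made in 129 embryonic stem cells, excised with Sox2-cre and backcrossed, so every group keeps Ago2 and the deletion is not limited to germ cells. Cells were enriched by sedimentation in a BSA gradient from pooled testes of 2 to 5 mice, and fractions of more than 70% purity were used, with higher purity in round spermatids than in spermatocytes per the study's methods, so each library is a pool of animals that can hold other testis cells. No source says that the libraries of a group share no animals, so the p-values measure the spread between these samples, which may be partly technical. A table of miRNAs can show neither the deletion nor the messenger RNA markers of the cell types. The 3 germ cell miRNAs listed as markers (miR-34b-5p, miR-34c-5p and miR-449a-5p) together held between 58090 and 112119 CPM (counts scaled to a common library size) in Ago413+/+ spermatocytes and between 59253 and 108408 CPM in Ago413+/+ round spermatids, which shows their presence in both fractions and does not separate them. Library totals ran from 182904 to 1072637 counts, with the lowest totals in Ago413-/- spermatocytes (182904 to 369491).

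A miRNA is cut from a hairpin as a duplex of a 5p and a 3p strand. One strand, the guide, is usually kept by an Argonaute (AGO) protein, and the other, the passenger, is mostly lost. The guide finds messenger RNAs by its seed, bases 2 to 8, and AGO proteins then lower their translation or stability. miR-26 is a conserved family expressed in many tissues, known for restraining cell division and for repressing Ezh2, the methyltransferase of Polycomb repressive complex 2.

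The mature sequences show that the 5p strands share a seed and the 3p strands are less alike. They are given 5′ to 3′ as RefSeq holds them (GRCm38.p6), with the seed in capitals.
mmu-miR-26a-5p: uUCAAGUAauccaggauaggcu
mmu-miR-26b-5p: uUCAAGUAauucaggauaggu
mmu-miR-26a-1-3p: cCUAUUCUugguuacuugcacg
mmu-miR-26a-2-3p: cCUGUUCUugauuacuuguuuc
mmu-miR-26b-3p: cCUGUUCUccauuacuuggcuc

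The seed UCAAGUA was shared by mmu-miR-26a-5p and mmu-miR-26b-5p and by no other of the 1679 rows that matched a RefSeq sequence. The guides were identical at 19 of 21 aligned bases. Counted from the 5′ end, with miR-26a-5p first, they differed by C11U and C21U, and miR-26a-5p was 1 base longer. The 3p strands were less alike, with 16 of 22 bases identical between mmu-miR-26a-1-3p and mmu-miR-26a-2-3p, 14 of 22 between mmu-miR-26a-1-3p and mmu-miR-26b-3p, and 18 of 22 between mmu-miR-26a-2-3p and mmu-miR-26b-3p. mmu-miR-26a-2-3p and mmu-miR-26b-3p had the seed CUGUUCU, also found in 2 rows outside the family, mmu-miR-6932-3p and mmu-miR-7039-3p. The seed CUAUUCU of mmu-miR-26a-1-3p was found in no other row.

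The hairpins show that both 26a loci give the same 5p strand from different precursors. Both arms are in capitals and the loop and flanks in lower case, from RefSeq on GRCm38.p6. Each is on the plus strand.
Mir26a-1: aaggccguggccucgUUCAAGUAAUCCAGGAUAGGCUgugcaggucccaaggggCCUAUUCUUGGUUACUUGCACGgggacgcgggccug
Mir26a-2: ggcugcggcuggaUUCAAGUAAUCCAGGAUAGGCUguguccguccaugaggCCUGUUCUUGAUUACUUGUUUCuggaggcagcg
Mir26b: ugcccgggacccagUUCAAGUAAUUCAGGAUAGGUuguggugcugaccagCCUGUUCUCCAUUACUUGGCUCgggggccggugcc

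All 3 hairpins lay on the sense strand in an intron of a gene for a small phosphatase of the RNA polymerase II C-terminal domain. In the principal transcripts of GENCODE M21, Mir26a-1 (chr9:119031796-119031885) lay in intron 5 of 7 of Ctdspl, 1543 bases after the upstream exon. Mir26a-2 (chr10:126995530-126995613) lay in intron 5 of 7 of Ctdsp2, 1621 bases after the upstream exon. Mir26b (chr1:74394310-74394394) lay in intron 4 of 6 of Ctdsp1, 234 bases after the upstream exon. Since miR-26a-5p is the same from both hairpins, its counts cannot be assigned to a locus. The table appears to enter a read once for each hairpin it matches. mmu-miR-199a-3p and mmu-miR-199b-3p have the same mature sequence, with 2 hairpins and 1 hairpin in RefSeq, and the counts of the first were 1.99 to 2.01 times those of the second in all 24 libraries (median 2.00). miR-26a-5p also has 2 hairpins and miR-26b-5p has 1, so the level of miR-26a-5p may be counted nearly double. Whether it was cannot be read from its own row, and every level, share, rank and ratio of miR-26a-5p here is on the deposited counts unless said otherwise. A factor common to all libraries leaves the comparisons between groups in place.

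The guides made up nearly all of the family. Of 269238 family counts in 24 libraries, mmu-miR-26a-5p held 86.4% and mmu-miR-26b-5p 13.6%, and the 3p strands together held 173 counts, or 0.0643%. With the counts of miR-26a-5p halved, an alternative chosen after seeing the data, the guides held 76.0% and 23.9%. The family took between 1.09% and 2.88% of the counts of a library. miR-26a-5p had between 1705 and 22219 counts per library and miR-26b-5p between 277 and 3534, so both were measured far above counting error. Only the guides were abundant enough to be tested within a cell type, which took 10 or more counts in 3 or more libraries. mmu-miR-26a-2-3p met that minimum only over all 24 libraries, and mmu-miR-26a-1-3p and mmu-miR-26b-3p never did. Levels in CPM were scaled by the trimmed mean of M-values (TMM) over all libraries. A difference was called at an adjusted p under 0.05 in edgeR's quasi-likelihood test together with a change of at least 1 on the log2 scale. The study set the same thresholds, but in DESeq2 and on counts summed into miRNA families, so a call of a single miRNA here is not a call by its criteria.

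The abundant guide, mmu-miR-26a-5p, had similar means in the 3 genotypes of spermatocytes. In spermatocytes, replicates 1 to 4 read 17832, 19831, 18802 and 15864 CPM in Ago413+/+ (18082 ± 1689, SD, n = 4). The Ago413+/- libraries read 17208, 16947, 24398 and 15679 CPM (18558 ± 3950, SD, n = 4), and the Ago413-/- libraries 19352, 11366, 23856 and 17589 CPM (18041 ± 5174, SD, n = 4). The 3 genotypes overlapped, and the lowest value belonged to Ago413-/- replicate 2, the smallest library of the series.

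In round spermatids miR-26a-5p had its lowest mean in Ago413+/-. Ago413+/+ libraries read 21652, 20309, 24006 and 16920 CPM (20722 ± 2959, SD, n = 4). Ago413+/- libraries read 15184, 14183, 17400 and 15916 CPM (15671 ± 1354, SD, n = 4), and Ago413-/- libraries 22575, 17964, 18702 and 21067 CPM (20077 ± 2127, SD, n = 4). The Ago413+/- libraries lay below every Ago413-/- library and overlapped Ago413+/+. Ordered by group mean, round spermatids Ago413+/- stood lowest and round spermatids Ago413+/+ highest, and each group overlapped its neighbours in that order. By mean level miR-26a-5p ranked between 14th and 20th among all miRNAs in the 6 groups.

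The lesser guide, mmu-miR-26b-5p, was highest in Ago413-/- round spermatids. Its spermatocyte libraries read 1930, 3312, 2443 and 1966 CPM in Ago413+/+ (2413 ± 643, SD, n = 4). They read 2991, 2465, 2346 and 3364 CPM in Ago413+/- (2792 ± 473, SD, n = 4) and 4698, 1846, 3737 and 2970 CPM in Ago413-/- (3313 ± 1206, SD, n = 4). All 3 genotypes overlapped in spermatocytes, and Ago413-/- held both the highest and the lowest value.

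In round spermatids only Ago413-/- stood apart from the other genotypes for miR-26b-5p. The Ago413+/+ libraries read 2005, 2534, 2212 and 1874 CPM (2156 ± 288, SD, n = 4), and the Ago413+/- libraries 2295, 2490, 2542 and 2356 CPM (2421 ± 115, SD, n = 4). The Ago413-/- libraries read 5882, 3288, 4162 and 4847 CPM (4545 ± 1096, SD, n = 4). Every Ago413-/- library stood above every library of the other round spermatid groups, which overlapped each other. In order of group mean the levels ran from round spermatids Ago413+/+ through spermatocytes Ago413+/+, round spermatids Ago413+/-, spermatocytes Ago413+/- and spermatocytes Ago413-/- to round spermatids Ago413-/-. Neighbours in that order overlapped at every step, including the last. By mean level miR-26b-5p ranked 73rd among all miRNAs in round spermatids Ago413+/+ and 48th in round spermatids Ago413-/-.

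**Figure D1:**
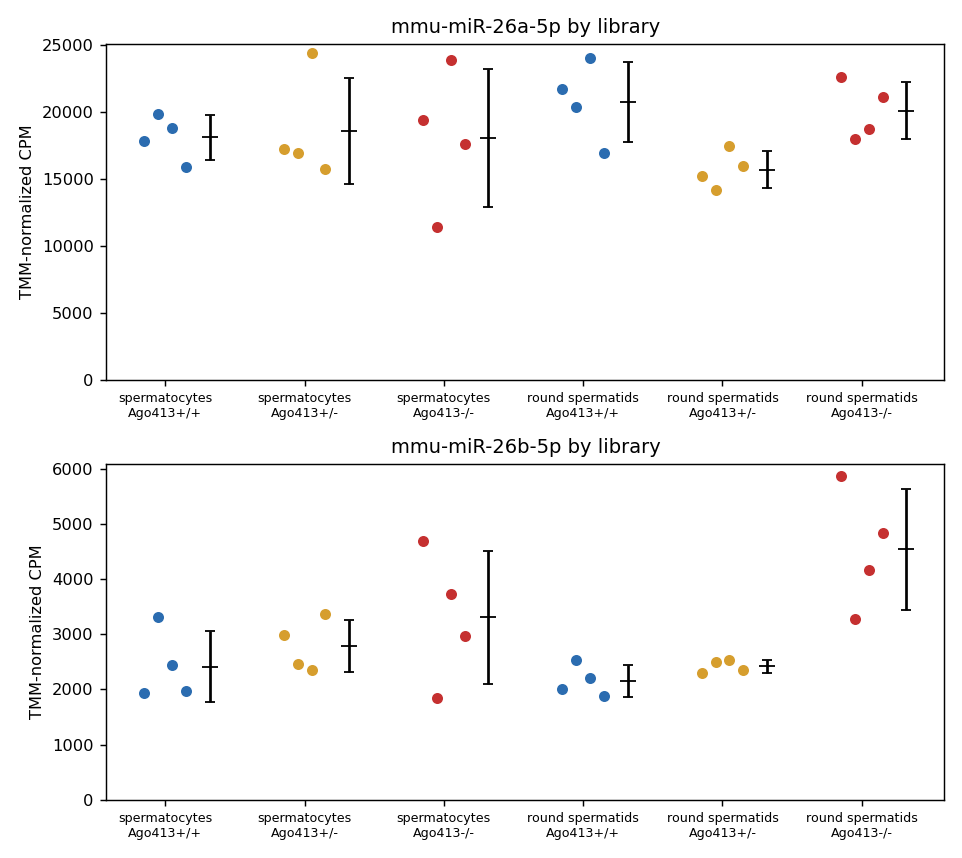
Levels of mmu-miR-26a-5p (top) and mmu-miR-26b-5p (bottom) in each library, as TMM-normalized CPM on axes that start at 0, by cell type and Ago413 genotype. Points are replicates 1 to 4 from left to right, and the bar beside them is the mean ± SD (n = 4). The miR-26b-5p libraries of Ago413-/- round spermatids (3288 to 5882 CPM) lie above all other round spermatid libraries (1874 to 2542 CPM), while miR-26a-5p lies between 11366 and 24398 CPM throughout.

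The first comparison asked whether losing the Ago413 locus altered the family in haploid cells. In Ago413-/- against Ago413+/+ round spermatids, miR-26b-5p rose 2.34-fold, a log2 change of 1.22 (SE 0.21, 95% interval 0.78 to 1.67, edgeR adjusted p = 0.00103). miR-26a-5p did not pass the test, with a log2 change of 0.11 (SE 0.17, 95% interval −0.25 to 0.47, edgeR adjusted p = 0.661). So 1 of the 2 tested members was called, where 16.2% of the 426 miRNAs tested were called in this comparison. In CPM, 1 of the 2 had groups that did not overlap, as had 23.7% of the 426. The call for miR-26b-5p rested on the fold limit: leaving out Ago413+/+ replicate 1 or Ago413-/- replicate 1 gave a log2 change of 0.96 each (edgeR adjusted p = 0.0134 and 0.0116), and testing without a count minimum gave 0.99 (adjusted p = 0.00565). The median of all miRNAs stood at 0.13 in this fit, so that miR-26b-5p lay 1.09 above it and miR-26a-5p 0.03 below (−0.03), and the log2 change of miR-26a-5p turned to −0.11 with library totals and was 0.0096 with RLE scaling.

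Marker miRNAs of other cell types moved in the same comparison, and their part in the miR-26b-5p result was not tested. Among the blood markers, 2 of the 3 listed were tested and both were higher in Ago413-/-, with a summed level of 49.2 to 501 CPM in Ago413+/+ and 103 to 4813 CPM in Ago413-/- round spermatids. All 3 leukocyte markers had a log2 change above 0 and 2 were called higher, with sums of 134 to 322 CPM against 371 to 533 CPM. Each of the 2 endothelial markers had a log2 change above 0 and 1 was called higher, with sums of 511 to 1990 CPM against 1951 to 5858 CPM. Neither of the 2 peritubular markers was called (1060 to 8555 CPM against 2031 to 3444 CPM), and 0 of them had a log2 change above 0. The median of the peritubular sum was nevertheless higher in Ago413-/- (2405 CPM) than in Ago413+/+ (1439 CPM), so its direction was not clear. None of the 3 germ cell markers was called (59253 to 108408 CPM against 70397 to 133847 CPM), though all 3 had a log2 change above 0. Of these, miR-449a-5p was higher by 0.98 (edgeR adjusted p = 0.0110), just under the fold limit. No listed marker was at 0 in every library of either group. In Ago413+/- round spermatids miR-26b-5p overlapped Ago413+/+, and the marker lists differed. The leukocyte sum there (347 to 502 CPM) also lay above every Ago413+/+ library. The endothelial sum (858 to 1160 CPM) overlapped Ago413+/+ and lay below every Ago413-/- library. The blood sum (179 to 1155 CPM) overlapped both. In Ago413-/- against Ago413+/- the endothelial miR-126a-3p was called (log2 change 2.01, edgeR adjusted p = 0.00567), and no other listed marker was. In pools of cells, a change in the number of cells of a type and a change in RNA per cell cannot be told apart.

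Against heterozygous cells, Ago413-/- round spermatids had more miR-26b-5p. miR-26b-5p was higher by 0.98 on the log2 scale, or 1.98-fold (SE 0.21, 95% interval 0.54 to 1.43, edgeR adjusted p = 0.00567), which passed the p threshold and fell just under the fold limit. miR-26a-5p had a log2 difference of 0.43 (SE 0.17, 95% interval 0.07 to 0.79, edgeR adjusted p = 0.0840), which did not pass. Thus 0 of the 2 tested members were called, against 12.4% of the 426 miRNAs tested, although neither guide overlapped between the groups, as was the case for 23.2% of the 426. miR-26b-5p met the fold limit as well without Ago413+/- replicate 3 (1.01), Ago413-/- replicate 2 (1.12) or Ago413-/- replicate 3 (1.01).

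The heterozygous deletion alone gave no call. In round spermatids Ago413+/- against Ago413+/+, miR-26a-5p had a log2 change of −0.32 (SE 0.17, 95% interval −0.68 to 0.04, edgeR adjusted p = 0.375). miR-26b-5p had one of 0.24 (SE 0.21, 95% interval −0.20 to 0.68, edgeR adjusted p = 0.587). The share of all 426 miRNAs called was 0%, although 68 had an unadjusted p under 0.05 in edgeR and DESeq2 called 6.

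In spermatocytes neither guide passed in any genotype comparison. Ago413-/- against Ago413+/+ gave a log2 change of −0.02 for miR-26a-5p (SE 0.27, 95% interval −0.59 to 0.54, edgeR adjusted p = 0.951). For miR-26b-5p it gave 0.45 (SE 0.33, 95% interval −0.25 to 1.14, edgeR adjusted p = 0.437), an interval that stops just short of the round spermatid value of 1.22. Neither of the 2 members was called, where 4.46% of 404 tested miRNAs were. In that comparison none of the 3 germ cell markers was called, and 0 of them had a log2 change above 0. Their sum was 18752 to 78881 CPM in Ago413-/- spermatocytes and 58090 to 112119 CPM in Ago413+/+ spermatocytes. Their median log2 change was −0.78, beside −0.05 over all miRNAs. The other marker lists held no call there either. What part the markers had in these values was not tested. Ago413-/- against Ago413+/- gave −0.10 for miR-26a-5p and 0.20 for miR-26b-5p (edgeR adjusted p = 0.811 and 0.689), with 2.23% of 404 called. Ago413+/- against Ago413+/+ gave 0.07 and 0.25 (edgeR adjusted p = 1.00 for both), with 0% of 404 called, 13 at an unadjusted p under 0.05 in edgeR and 0 called by DESeq2. Round spermatids and spermatocytes were not shown to respond differently to the deletion: the difference between their Ago413-/- against Ago413+/+ changes was 0.62 for miR-26b-5p (SE 0.37, 95% interval −0.15 to 1.39, edgeR adjusted p = 0.416). For miR-26a-5p that difference was −0.04 (SE 0.31, edgeR adjusted p = 0.936). The same test passed for 0% of 450 miRNAs, with 55 at an unadjusted p under 0.05 in edgeR and 0 passing in DESeq2.

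The passage from spermatocyte to round spermatid was not accompanied by a called change in either guide. In Ago413+/+ cells, round spermatids against spermatocytes gave log2 changes of 0.20 for miR-26a-5p (95% interval −0.25 to 0.64) and −0.16 for miR-26b-5p (95% interval −0.71 to 0.38), both at an edgeR adjusted p = 0.996. In Ago413+/- cells the changes were −0.24 and −0.21 (edgeR adjusted p = 0.988 for both). In Ago413-/- cells they were 0.15 for miR-26a-5p (edgeR adjusted p = 0.684) and 0.45 for miR-26b-5p (95% interval −0.09 to 1.00, edgeR adjusted p = 0.280). Of 450 miRNAs tested, 0% were called in Ago413+/+, 0% in Ago413+/- and 4.89% in Ago413-/-. At an unadjusted p under 0.05, edgeR counted 10 in Ago413+/+ and 15 in Ago413+/-, and DESeq2 called 0 in each.

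**Figure D2:**
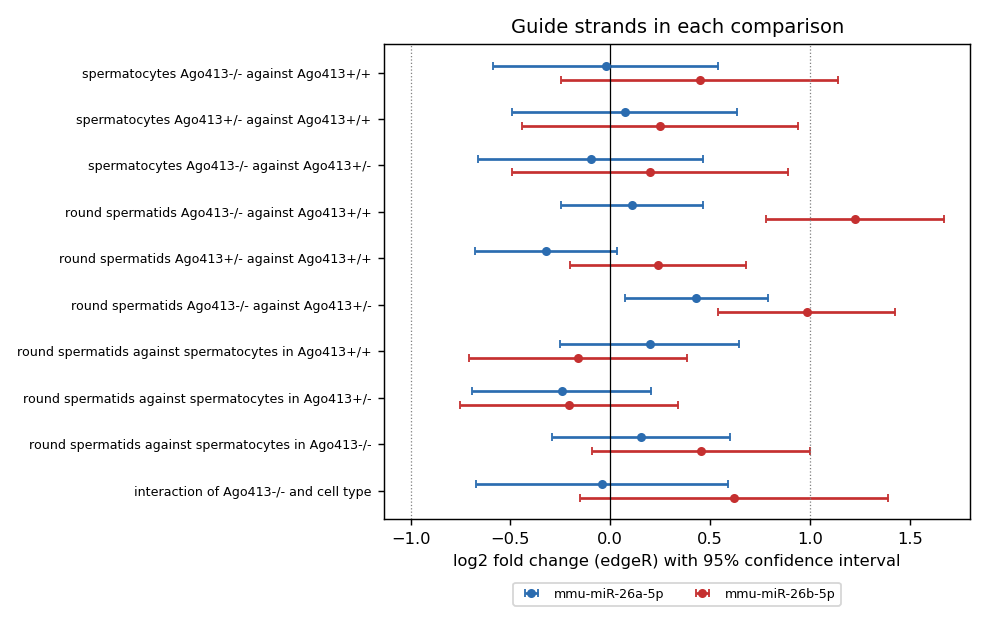
Log2 fold changes of mmu-miR-26a-5p and mmu-miR-26b-5p from edgeR in each comparison, with 95% confidence intervals as bars. The solid line marks no change and the dotted lines the fold limit of 1 on the log2 scale. The interval of miR-26b-5p lies above 0 in Ago413-/- round spermatids against Ago413+/+ (0.78 to 1.67) and against Ago413+/- (0.54 to 1.43), and that of miR-26a-5p lies above 0 only against Ago413+/- (0.07 to 0.79).

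The balance between the guides was read from the counts of miR-26a-5p per count of miR-26b-5p in the same library, a ratio that no scaling between libraries can change and that would run from 1.92 to 5.43 over all libraries, in place of 3.84 to 10.9, with miR-26a-5p halved. In round spermatids it was 10.8, 8.02, 10.9 and 9.03 in Ago413+/+. It was 6.62, 5.70, 6.84 and 6.76 in Ago413+/- and 3.84, 5.46, 4.49 and 4.35 in Ago413-/-. Every Ago413+/- ratio lay below every Ago413+/+ ratio and above every Ago413-/- ratio. The Ago413+/- ratios entered no test, and how often other pairs of miRNAs separate in this way was not counted. Of single miRNAs, 23.7% of 426 did not overlap in CPM between Ago413-/- and Ago413+/+ round spermatids. Between Ago413-/- and Ago413+/- the share was 23.2%. miR-26b-5p thus held 9.49% ± 1.28 (SD, n = 4) of the guide counts in Ago413+/+, 13.4% ± 1.02 in Ago413+/- and 18.3% ± 2.14 in Ago413-/- round spermatids.

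In spermatocytes the ratio was 9.24, 5.99, 7.70 and 8.07 in Ago413+/+. It was 5.75, 6.87, 10.4 and 4.66 in Ago413+/- and 4.12, 6.16, 6.38 and 5.92 in Ago413-/-. These groups overlapped, and the Ago413+/- libraries spread the widest. The share of miR-26b-5p was 11.7% ± 1.92 (SD, n = 4) in Ago413+/+, 13.5% ± 3.74 in Ago413+/- and 15.4% ± 2.80 in Ago413-/-.

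On the log2 scale the ratio was lower in Ago413-/- than in Ago413+/+ round spermatids by 1.09 (difference −1.09, exact two-sided permutation test, p = 0.0286, the smallest p that 4 against 4 libraries allow). Adjusted over the 12 ratio tests made it did not pass (exact permutation test, adjusted p = 0.343), and a single ratio could not have. In spermatocytes the difference was −0.46 (exact permutation test, p = 0.0857, adjusted p = 0.343), and between round spermatids and spermatocytes of Ago413+/+ it was 0.33 (exact permutation test, p = 0.143, adjusted p = 0.400). Of the 12 ratio tests, 0 passed after adjustment and 1 had an unadjusted p under 0.05 by the exact permutation test.

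**Figure D3:**
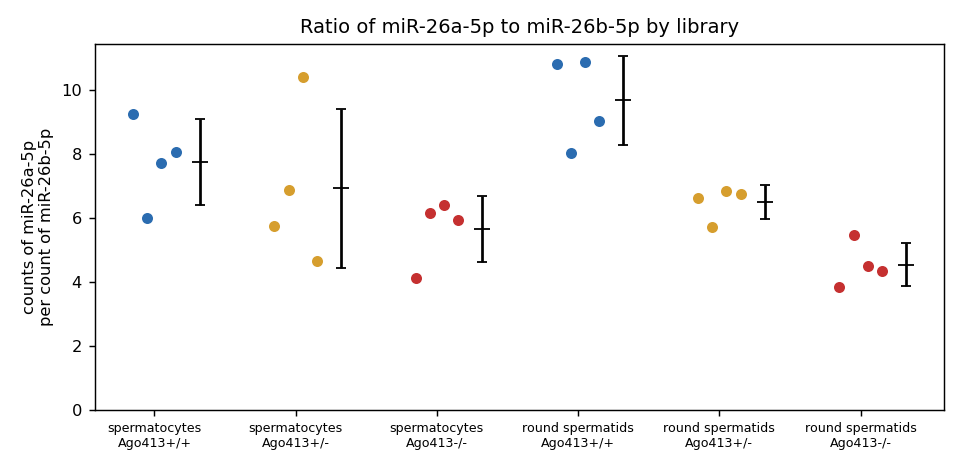
Raw counts of mmu-miR-26a-5p per count of mmu-miR-26b-5p in each library, on an axis that starts at 0, by cell type and Ago413 genotype. Points are replicates 1 to 4 from left to right, with the mean ± SD (n = 4) beside them. In round spermatids the ratios fall in separate ranges, 8.02 to 10.9 in Ago413+/+, 5.70 to 6.84 in Ago413+/- and 3.84 to 5.46 in Ago413-/-, while the spermatocyte groups overlap. The Ago413+/- ratios were not tested.

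Since targets are found by the seed, the guides were also summed as the seed family UCAAGUA, which the more abundant miR-26a-5p dominates. The sum changed by 0.03 on the log2 scale in Ago413-/- against Ago413+/+ round spermatids (edgeR adjusted p = 0.916), with a median of −0.12 over all 353 seed families. Libraries were scaled anew for the seed families, and the median of single miRNAs was 0.13. The change of the sum is thus not on the same scale as those of the guides. It was called in none of the 10 comparisons. In the others between genotypes, its log2 change was 0.37 in round spermatids Ago413-/- against Ago413+/- (edgeR adjusted p = 0.165), −0.34 in round spermatids Ago413+/- against Ago413+/+ (edgeR adjusted p = 0.348), and between −0.10 and 0.01 in spermatocytes. Of 353 seed families in round spermatids, 15.9% were called in Ago413-/- against Ago413+/+, 12.2% against Ago413+/- and 0% in Ago413+/- against Ago413+/+. Of 335 in spermatocytes, the shares in the same order were 6.87%, 2.09% and 0%. Of 371 seed families between cell types, 6.2% were called in Ago413-/-, 0% in each other genotype and 0% in the difference between cell types. With miR-26a-5p halved, the sum changed by 0.16 in Ago413-/- against Ago413+/+ round spermatids (edgeR adjusted p = 0.588).

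The 3p strands stood at a few counts per library. mmu-miR-26a-1-3p, the passenger of the Ctdspl hairpin, had 24 counts in all, at most 4 in a library, and was seen in 15 of 24 libraries. mmu-miR-26a-2-3p, from the Ctdsp2 hairpin, had 115 counts, at most 14 in a library, and was seen in 23 of 24. mmu-miR-26b-3p, from the Ctdsp1 hairpin, had 34 counts, at most 7 in a library, and was seen in 15 of 24. The 3p strands are the only members that tell the 26a hairpins apart, and mmu-miR-26a-2-3p had the higher sum in all 6 groups.

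mmu-miR-26b-3p had most of its counts in Ago413+/+ cells, whose spermatocyte libraries were also deeper (median total 635808, against 387649 in Ago413+/- and 262790 in Ago413-/-). In round spermatids the median totals were closer (641717 in Ago413+/+, 575520 in Ago413+/- and 535068 in Ago413-/-). The counts of mmu-miR-26b-3p were 2, 4, 3 and 2 in Ago413+/+ spermatocytes. They summed to 6 in Ago413+/- spermatocytes, where all 4 libraries held the strand (2.35 to 4.26 CPM), and were 0, 0, 1 and 0 in Ago413-/- spermatocytes. The round spermatid counts were 3, 7, 2 and 0 in Ago413+/+ round spermatids, 0, 0, 0 and 1 in Ago413+/- and 0, 2, 0 and 1 in Ago413-/-. These low counts can show little: a count of 0 allows 3 counts, which are 7.8 to 20 CPM in the Ago413-/- spermatocyte libraries, while the strand read 3.32 to 6.35 CPM in Ago413+/+ spermatocytes. A difference was therefore not detectable at this depth in spermatocytes. On the log2 scale the ratio of miR-26b-5p to mmu-miR-26b-3p (counts + 0.5) differed between Ago413-/- and Ago413+/+ by 1.37 in spermatocytes (exact permutation test, p = 0.0571) and by 2.14 in round spermatids (exact permutation test, p = 0.171). With 5 in place of 0.5 the spermatocyte difference turned to −0.32.

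The 26a passengers did not separate the genotypes. mmu-miR-26a-2-3p summed to 18, 21 and 13 counts in Ago413+/+, Ago413+/- and Ago413-/- spermatocytes and to 23, 28 and 12 in round spermatids. mmu-miR-26a-1-3p summed to 2 in each spermatocyte group and to 9, 2 and 7 in round spermatids. In the fits over all libraries mmu-miR-26a-2-3p had a log2 change of −1.17 in Ago413-/- round spermatids against spermatocytes (95% interval −2.69 to 0.34, edgeR adjusted p = 0.309), and it passed in none of the comparisons it entered. The ratio of miR-26a-5p to the sum of its 3p strands differed between Ago413-/- and Ago413+/+ by −1.20 in spermatocytes (exact permutation test, p = 0.2) and by 0.25 in round spermatids (exact permutation test, p = 0.543).

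**Figure D4:**
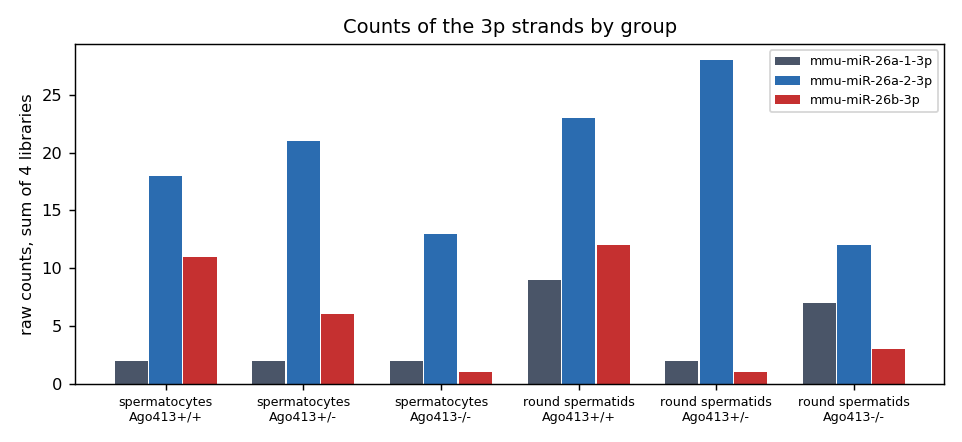
Raw counts of mmu-miR-26a-1-3p, mmu-miR-26a-2-3p and mmu-miR-26b-3p summed over the 4 libraries of each group, not corrected for depth. mmu-miR-26a-2-3p is the tallest bar in all 6 groups (12 to 28 counts), and mmu-miR-26b-3p sums to 11 and 12 counts in Ago413+/+ cells and to between 1 and 6 in the other groups.

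A list of guide strands from other intronic hairpins was set beside the family. The list held 23 guide strands, of which 22 had a hairpin in RefSeq and 20 lay in an intron of a GENCODE M21 gene. In Ago413-/- against Ago413+/+ round spermatids 20 were tested, of which 14 had a log2 change above 0. Of these 20, 0 were called higher and 1 was called lower, where 16.2% of all 426 miRNAs were called in either direction. Their median log2 change was 0.20 beside 0.13 over all miRNAs. In spermatocytes 19 were tested, of which 7 had a log2 change above 0. Of these 19, 0 were called higher and 1 was called lower, where 4.46% of all 404 were called. Their median was −0.32 beside −0.05. The one called lower was mmu-miR-139-5p both times, from an intron of Pde2a. Its log2 change was −1.91 in round spermatids (SE 0.32, edgeR adjusted p = 0.00100) and −1.92 in spermatocytes (SE 0.42, edgeR adjusted p = 0.0180).

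The guides followed different miRNAs across the 24 libraries. Over the log2 CPM of 212 other miRNAs with a mean of at least 100 CPM, the patterns most like miR-26a-5p were those of miR-22-5p (Pearson r = 0.708), miR-296-5p (0.683), miR-23b-3p (0.587), miR-191-5p (0.583) and miR-186-5p (0.573). Those most like miR-26b-5p were miR-199a-3p (r = 0.771), miR-199b-3p (0.771), miR-547-3p (0.734), miR-202-5p (0.734) and miR-1839-5p (0.687). The first pair of these is 1 sequence counted in 2 rows, so the 5 rows hold 4 different miRNAs. The median r was 0.135 for miR-26a-5p and 0.149 for miR-26b-5p. Between the guides themselves r was 0.398, 28th of 213 in the order of likeness to miR-26a-5p. These correlations are a description over libraries that share genotypes, cell types and scaling.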

How the data were processed

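Small RNA libraries were made by the authors with the NEBNext kit and read as 50 bp single ends. Per the study's methods, reads were trimmed with TrimGalore, dropping those under 10 nt, and the authors quantified mature miRNAs with miRDeep2 on miRBase 22.1 (tool versions not given in the sources used here). The deposited table holds raw counts per mature miRNA, not normalized, with totals of 182904 to 1072637 per library that set the precision of low values. Groups came from the sample labels. From the counts, edgeR 4.0.16 (R 4.3.3) computed TMM-scaled CPM and quasi-likelihood tests with Benjamini-Hochberg adjustment over all miRNAs with at least 10 counts in 3 libraries. Genotypes were compared on the 12 libraries of a cell type, and cell types on all 24. The log2 ratios of counts + 0.5 were compared by exact permutation tests over every split of the libraries. With miR-26a-5p halved, scipy 1.17.1 ran these tests. The fits were run on simulated counts with known changes and the same spread for every miRNA. That run does not test them at the spread seen in these data. Members, similar miRNAs (the 5 highest correlations per guide) and marker lists were set with earlier results of these data known. Alternatives were DESeq2 1.42.0, RLE scaling, library totals, other filters, a replicate block, fewer genotypes, seed families, a larger pseudocount, halved miR-26a-5p counts (added after seeing the data) and leaving out each replicate. Limits from counts cover counting error only.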

Additional observations from a re-analysis of the deposited data

Results flagged for a closer look

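Of 54 groups of 4 libraries checked for a value far from the other 3, 4 held one, where a rate of 1 in 20 would give about 2.7. That rate does not hold here, since a group with 3 libraries at 0 CPM is flagged at any count in the fourth. The flags also include the same library for its CPM and its ratio, so no conclusion is drawn from their number. All concern mmu-miR-26b-3p and rest on 0 to 7 counts per library. In Ago413-/- spermatocytes replicate 3 read 3.71 CPM and the others 0. In Ago413+/- round spermatids replicate 4 read 1.43 CPM and the others 0. In Ago413+/+ round spermatids replicate 4 read 0 CPM and the others 6.11 to 6.77 CPM, and for the same reason its log2 ratio of miR-26b-5p to mmu-miR-26b-3p was 11.6 against 8.03 to 8.53 in the others.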

How the results depend on the processing

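The rise of mmu-miR-26b-5p in Ago413-/- against Ago413+/+ round spermatids kept its direction in all 16 alternative fits of single miRNAs (edgeR or DESeq2 adjusted p from 2.28e-06 to 0.0139), and its log2 change lay between 0.99 and 1.21 apart from the leave-one-out fits, which ran from 0.96 to 1.36. With no filter on low counts, 0 members were called there, and leaving out 1 library gave 0 to 1 called members both there and against Ago413+/-. The direction of mmu-miR-26a-5p turned in that comparison with library totals (−0.11), no filter (−0.12), at least 10 counts in every library (−0.0070) and only the 2 genotypes compared (−0.12). Leaving out 1 library gave −0.11 to 0.17. In 403 alternative values of single members 42 turned direction, all with an adjusted p above 0.05. Among these, in spermatocytes, miR-26a-5p in Ago413-/- against Ago413+/+ read 0.027 with only the 2 genotypes, and in Ago413+/- against Ago413+/+ −0.072 with no filter. Its interaction value read 0.11 with library totals, 0.068 with no filter, 0.15 with 10 counts in every library and 0.056 as a seed family. Summed into the seed family, where miR-26a-5p dominates, miR-26b-5p took −0.083 (spermatocytes Ago413-/- against Ago413+/+), −0.097 (against Ago413+/-), −0.34 (round spermatids Ago413+/- against Ago413+/+) and 0.12 (round spermatids against spermatocytes in Ago413+/+). Leave-one-out ranges that crossed 0 in spermatocytes were −0.16 to 0.14, −0.075 to 0.20 and −0.23 to 0.047 for miR-26a-5p in Ago413-/- against Ago413+/+, Ago413+/- against Ago413+/+ and Ago413-/- against Ago413+/-, and −0.013 to 0.37 for miR-26b-5p in the last. In the interaction of miR-26a-5p it was −0.10 to 0.21. For mmu-miR-26a-2-3p between cell types it was −0.063 to 0.62 in Ago413+/+ and −0.43 to 0.29 in Ago413+/-. Log2 ratios also crossed 0: miR-26a-5p to its 3p strands in round spermatids (−0.027 to 0.52), miR-26b-5p to mmu-miR-26b-3p between cell types (−0.54 to 0.65), and mmu-miR-26a-1-3p to mmu-miR-26a-2-3p in spermatocytes (−0.79 to 0.51) and round spermatids (−0.56 to 1.43). A pseudocount of 5 turned the ratio of miR-26b-5p to mmu-miR-26b-3p to −0.32 in spermatocytes Ago413-/- against Ago413+/+ and to −0.078 between cell types. The cause of these turns was not tested.

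The labels give no origin shared by same-numbered libraries, and the numbers were not taken as pairs because 6 of 12 pairs across cell types, not all, had deviations correlated above 0.1. Their median was 0.165, against −0.081 for the 36 other pairs, of which 8 were above 0.1. Library numbers were consecutive in 11 of the 12, and 10 of 24 libraries correlated best with their own number, so pairing across cell types was not settled. Within same-numbered pairs miR-26a-5p was higher in round spermatids in 4 of 4 Ago413+/+ pairs (log2 0.03 to 0.35) and miR-26b-5p in 4 of 4 Ago413-/- pairs (0.16 to 0.83). With a replicate block miR-26b-5p rose by 1.21 in round spermatids (edgeR adjusted p = 0.00701), its difference between cell types in Ago413-/- was 0.50 (edgeR adjusted p = 0.193), the interaction of miR-26a-5p read 0.0084, and no call of a member changed. Halving miR-26a-5p, chosen after seeing the data, turned no direction and changed no call. The 3p strands, at 14 counts or fewer per library, allow no firm comparison.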
